A study of Mus musculus with 4 samples.

Results

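The sites of the glucocorticoid receptor (GR) at 41 inflammatory genes were compared in mouse mammary cells with and without corticosterone. The genes were chosen by name, with earlier results of these data known. They encode cytokines, chemokines, their receptors, effector proteins, NF-κB subunits, NF-κB inhibitors and interferon regulatory factors. They make up 41 of the 21887 protein-coding genes of the mouse annotation. A gene was counted as having a GR site when the centre of a listed peak lay inside its span or within 25 kb of it, and a peak near several of the genes was counted once. By this rule 11 of the 2883 peaks listed after 12 h and 18 of the 5638 peaks listed after 1 h belonged to the 41 genes, at 20 distinct sites.

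GR is a nuclear receptor that moves onto DNA when it binds a glucocorticoid such as corticosterone, the main glucocorticoid of the mouse. NF-κB dimers are held in the cytoplasm by inhibitor proteins of the IκB family, and inflammatory signals remove the inhibitor so that the dimers switch on genes for cytokines, chemokines and adhesion molecules. Glucocorticoids are known to restrain many of these genes and to induce several NF-κB inhibitors, which is the basis of their use as anti-inflammatory drugs.

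Chromatin immunoprecipitation and sequencing (ChIP-seq) was carried out with a GR antibody cocktail in 33AP1C9 cells. These derive from C127 mouse mammary epithelial cells and carry an integrated reporter driven by the mouse mammary tumour virus promoter, together with a fluorescent PP7 coat protein that marks its transcripts. All cells were kept in medium with charcoal-dextran serum and were then left untreated or given 600 nM corticosterone for 1 h or 12 h. There was 1 library per condition, with 79203826 tags in the untreated, 90556119 in the 1 h and 97749688 in the 12 h library, so no difference has a replicate check and no test across conditions was possible. The labels give a different catalogue number for an antibody of the cocktail in each library, so antibody and treatment cannot be told apart. RNA was not measured here, so the identity of the cells was not checked against marker genes. The authors' peak caller set both treated libraries against the untreated GR library and kept a peak at 6-fold or more. A listed peak is thus itself a difference between a treated library and the untreated library. Tags are given per 10000000 tags of the library (normalised tags) unless called raw, positions are in mm10, and for a site in both lists the 1 h window is given.

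A larger share of the 41 genes than of protein-coding genes at large had a GR site nearby. Within 25 kb, 12 of the 41 genes had a peak in the 12 h list (29.3%) and 14 had one in the 1 h list (34.1%). Over all protein-coding genes the shares were 9.22% at 12 h and 16.9% at 1 h. The 41 genes are short, with a median span of 10.5 kb against 17.2 kb for all protein-coding genes, and short genes had fewer peaks. When each of the 41 genes was given the share found among protein-coding genes of like span length (5 bins), the average was 7.32% at 12 h and 13.7% at 1 h. A peak centre lay inside the span of 3 of the 41 genes at 12 h (7.32%, against 4.02% of protein-coding genes) and of 4 at 1 h (9.76%, against 7.54%). Within 10 kb the counts were 5 at 12 h (12.2%, against 6.16%) and 8 at 1 h (19.5%, against 11.7%). Within 100 kb, 14 of the 41 genes had a peak at 12 h (34.1%, against 22.3% of all protein-coding genes) and 27 had one at 1 h (65.9%, against 37.4%). These shares describe the 2 treated libraries, and neighbouring genes such as Cxcl1 and Cxcl2 count the same peaks. Because the genes were chosen with earlier results of these data known, the higher shares describe this list and are no test.

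**Figure D1:**
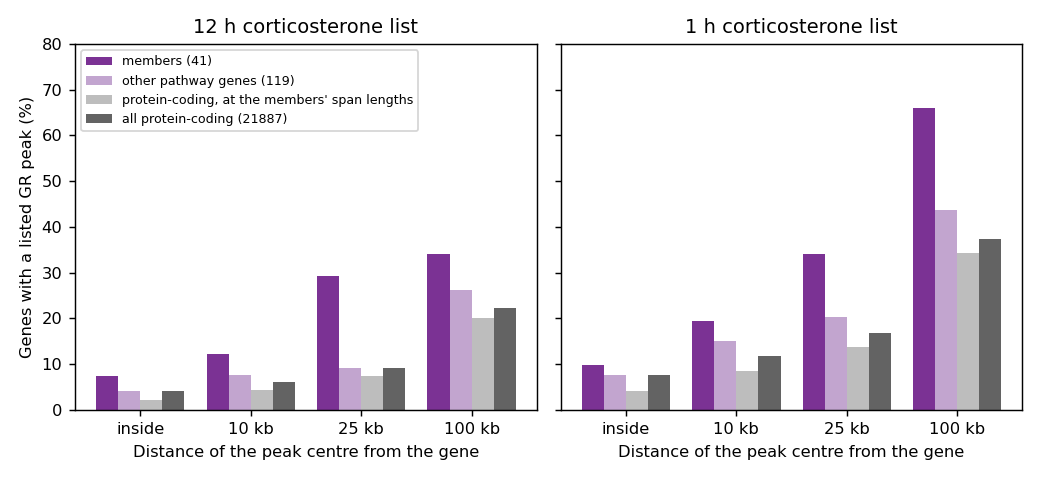
Percentage of genes with a listed GR peak (y axis) by the distance allowed between the peak centre and the gene (x axis), in the 12 h list (left) and the 1 h list (right), for the 41 genes (members), 119 other genes of the same pathways, protein-coding genes weighted to the span lengths of the 41, and all protein-coding genes. At 25 kb the bar of the 41 genes stands at 29.3% at 12 h and 34.1% at 1 h, while the other pathway genes stand at 9.24% and 20.2%.

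By functional group the counts were as follows, with no test between groups of this size. Over all protein-coding genes the shares within 25 kb were 9.22% at 12 h and 16.9% at 1 h. Of 10 chemokine genes, 5 had a site within 25 kb at 12 h and 6 at 1 h. Cxcl1 and Cxcl2 counted the same peaks. Of 6 NF-κB inhibitor genes 3 had a site at either time, and over both lists 4 of the 6 did. Of 10 cytokine genes 1 had a site at either time, and of 5 NF-κB subunit genes 1 did. In groups this small, such counts cannot be told from the shares over all protein-coding genes. None of 5 effector genes had a 12 h site and 1 had a 1 h site. In all, 10 genes had a peak in both lists (Csf1, Cxcl1, Cxcl2, Cxcl5, Cxcl10, Cx3cl1, Nfkb1, Nfkbiz, Tnfaip3 and Irf2), 4 in the 1 h list alone (Cxcl12, Il6st, Lcn2 and Nfkbia) and 2 in the 12 h list alone (Il1rn and Tnip1). Among these genes, 71.4% of those with a 1 h peak also had a 12 h peak. Over all protein-coding genes with a 1 h peak the share was 51.1%. Conversely, 83.3% of those with a 12 h peak also had a 1 h peak, against 93.5% over all protein-coding genes. These shares count genes rather than sites, and the differences were not tested.

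**Figure D2:**
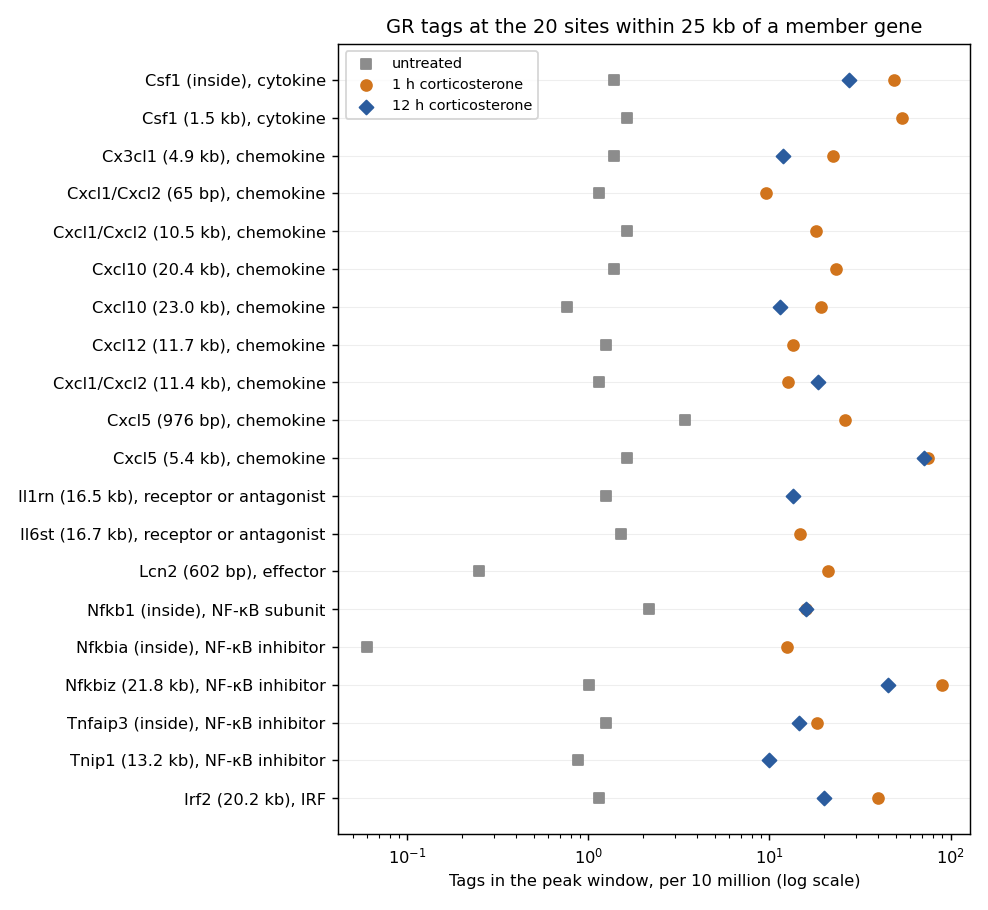
Normalised tags (x axis, log scale) at each of the 20 sites within 25 kb of the 41 genes (rows, with the distance from the gene and its role), in the untreated library (grey squares, 1 h window where the site is in both lists), the 1 h library (orange circles) and the 12 h library (blue diamonds). A missing circle or diamond means that the site was not listed at that time; the Nfkbia square stands for 0 tags, which the caller gives as 0.5, and the Nfkb1 circle lies under its diamond. The treated libraries span 9.61 to 89.4 tags at 1 h and 9.92 to 71.8 tags at 12 h.

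Among the cytokine genes Csf1, which encodes the growth factor of macrophages (M-CSF), was the one with sites close by. A site inside the gene (chr3:107743712-107743994) held 27.6 tags in the 12 h library and 48.8 in the 1 h library, and untreated cells gave 13 raw tags in its 12 h window and 11 in its 1 h window. The fold over untreated was 16.8 at 12 h (95% counting interval 9.68 to 32.0) and 35.1 at 1 h (19.5 to 70.9). The log2 ratio of 12 h over 1 h was -0.82 (-1.05 to -0.60), so the 12 h library was the lower one beyond counting error. A stronger site 1.52 kb downstream (chr3:107739388-107739670) held 54.0 tags at 1 h and was not listed at 12 h. To reach the required fold over untreated there, 9.85 tags would have been needed at 12 h. Its fold over the surrounding 10 kb, another condition for being listed, was 10.7 at 1 h against a minimum of 6. A further Csf1 site, 61.9 kb upstream, held 33.5 tags at 12 h against 77.9 at 1 h, a log2 ratio of -1.22 (-1.41 to -1.03).

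The other cytokine genes had no site within 25 kb. Il1a and Il1b (interleukin-1), Il6, Il11, Il33 and Tnf (tumour necrosis factor) had no listed peak within 100 kb at any time. The nearest 1 h peak of these genes lay 118 kb from Il6 and the farthest such distance was 660 kb, for Il11. Single 1 h peaks lay 32.4 kb from Csf2 (GM-CSF, 19.9 tags), 45.0 kb from Lif (11.3 tags) and 50.8 kb from Csf3 (G-CSF, 24.7 tags, inside Thra), and none of the 3 was listed at 12 h.

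The chemokine genes of the CXC type held most of the sites near ligand genes. Cxcl5, a neutrophil attractant of epithelial cells, had the strongest of them 5.42 kb from its span (chr5:90753739-90754021), with 71.8 tags in the 12 h library and 75.0 in the 1 h library. Untreated cells gave 14 raw tags over the 12 h window and 13 over the 1 h window. The log2 ratio was -0.06 (-0.22 to 0.09), within counting error. A weaker site 976 bp from the span (chr5:90758181-90758463) held 26.0 tags at 1 h alone. The untreated library held 27 raw tags there, the most at any of the 20 sites, and 20.5 tags would have been needed at 12 h to reach the fold.

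Cxcl1 and Cxcl2, neighbouring genes for neutrophil attractants, shared 3 sites. The one downstream of both (chr5:90917194-90917476), 11.4 kb from Cxcl2 and 24.2 kb from Cxcl1, held 18.6 tags at 12 h and 12.6 at 1 h. Its log2 ratio of 0.56 (0.22 to 0.92) made it the sole site among the 9 shared sites within 25 kb that was higher in the 12 h library beyond counting error. The site with its centre 65 bp before the Cxcl1 start (chr5:90891039-90891321) held 9.61 tags at 1 h, or 87 raw tags against 9 in the untreated library (fold 8.45, 4.25 to 19.1). It was not listed at 12 h, where 6.82 tags would have met the fold and the weakest peak of the whole list held 6.96. Another site 10.5 kb upstream of Cxcl1 (chr5:90880583-90880865) held 18.1 tags at 1 h alone.

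The peak at the Cxcl1 start covers 256 bases of the promoter window of the gene. It was the single overlap between a listed peak and the 40 promoter windows in the RefSeq promoter table for these genes, some of which have several starts. Over all 32851 windows, 0.158% overlapped a 12 h peak and 0.304% a 1 h peak. The windows run from 250 bases before to 50 after each start site and are shown for Cxcl1 (chr5:90890995-90891294, plus strand) and for Cxcl2 (chr5:90903649-90903948, plus strand). No peak came nearer to Cxcl2 than 12.7 kb upstream of its start or 11.4 kb downstream of the end of its span. The sequences are from RefSeq (GRCm38.p6). Capitals mark matches to the NF-κB consensus, which overlap on opposite strands in each window, at positions -71 to -61 from the Cxcl1 start and -97 to -87 from the Cxcl2 start.
Cxcl1: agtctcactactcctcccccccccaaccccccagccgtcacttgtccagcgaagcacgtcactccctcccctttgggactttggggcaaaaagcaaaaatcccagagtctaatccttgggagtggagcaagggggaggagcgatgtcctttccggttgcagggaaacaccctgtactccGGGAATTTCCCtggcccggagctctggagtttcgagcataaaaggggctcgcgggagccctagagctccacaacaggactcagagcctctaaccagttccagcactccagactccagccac
Cxcl2: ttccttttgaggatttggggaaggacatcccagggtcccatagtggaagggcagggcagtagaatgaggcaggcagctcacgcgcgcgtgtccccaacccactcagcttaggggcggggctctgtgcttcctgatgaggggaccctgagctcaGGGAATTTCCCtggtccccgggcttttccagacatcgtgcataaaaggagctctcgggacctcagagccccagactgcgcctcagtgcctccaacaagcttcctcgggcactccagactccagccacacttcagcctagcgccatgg
The 2 windows carry the same 11 capital letters, so the presence of the match does not separate the gene with a peak at its start from the one without. Neither window held a GR half-site (AGAACA on either strand) or an AP-1 site (TGACTCA on either strand).

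**Figure D3:**
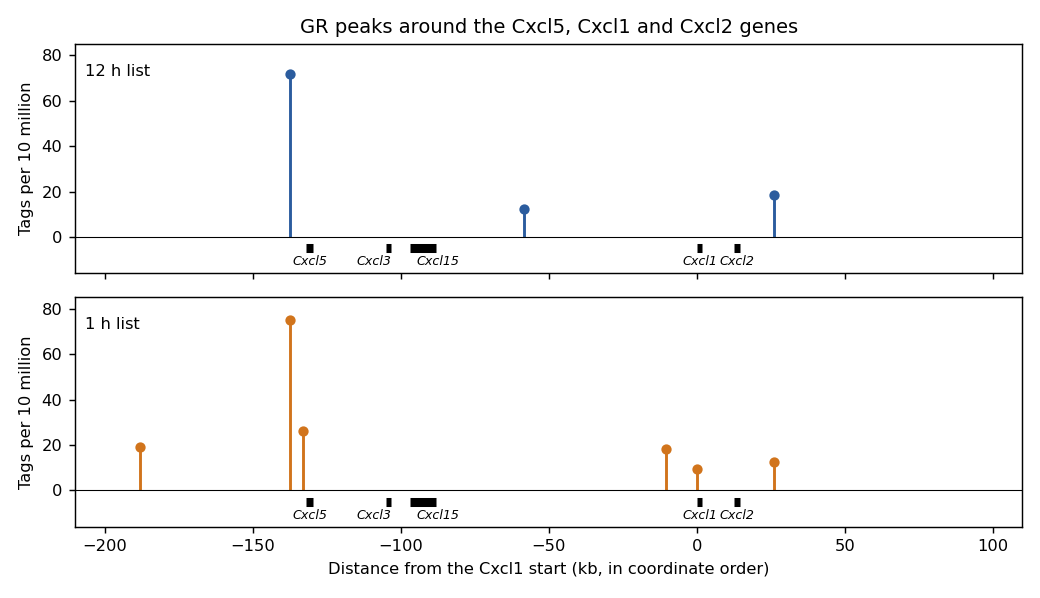
Normalised tags (y axis) of each listed GR peak by its distance from the Cxcl1 start (x axis, kb, in coordinate order) in the 12 h list (top) and the 1 h list (bottom), with gene spans as black bars. The 12 h list has 3 peaks in this interval and the 1 h list 6; the tall peak beside Cxcl5 stands at 71.8 tags at 12 h and 75.0 at 1 h.

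Cxcl10, an interferon-induced attractant of T cells, had sites on both sides. The one 23.0 kb downstream (chr5:92323448-92323730), inside Cxcl9, held 11.5 tags at 12 h against 19.3 at 1 h, a log2 ratio of -0.75 (-1.11 to -0.40). The one 20.4 kb upstream (chr5:92369185-92369467), inside Art3, held 23.4 tags at 1 h alone. A stronger Art3 site 42.1 kb upstream of Cxcl10 (chr5:92390816-92391098) held 11.5 tags in the 12 h library and 60.1 in the 1 h library. Its log2 ratio of -2.39 (-2.70 to -2.09) ranked 16th from the lowest among the 2436 sites in both lists. Of the other chemokine genes, Cx3cl1 (fractalkine, a membrane-anchored chemokine) had a site 4.95 kb downstream (chr8:94787235-94787517) with 11.9 tags at 12 h against 22.5 at 1 h, a log2 ratio of -0.92 (-1.27 to -0.59). Cxcl12, a chemokine of stromal cells, had one 11.7 kb downstream (chr6:117192966-117193248) with 13.5 tags at 1 h alone.

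The CC chemokine genes among the 41 (Ccl2, Ccl5, Ccl7 and Ccl20) had no site within 25 kb. Ccl2 and Ccl7, neighbouring monocyte attractant genes, shared a site in the 12 h list alone (chr11:82006856-82007158), 28.6 kb from Ccl2 and 38.7 kb from Ccl7. It held 24.2 tags at 12 h, at a fold of 14.8 over untreated, and 9.85 tags would have met the fold at 1 h. Ccl5, a T cell attractant gene, had a 1 h peak of 11.0 tags 41.8 kb away, which lay 588 bp from Ccl9. Ccl20 had no peak within 100 kb.

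Of the 3 receptor and antagonist genes, Il6st and Il1rn each had 1 site within 25 kb, and both were weaker than the median site of the 41 genes in their list. Il6st, which encodes the shared signalling receptor gp130, had a site 16.7 kb upstream (chr13:112447273-112447555) with 14.8 tags at 1 h alone, where the untreated library held 12 raw tags. Il1rn, which encodes the natural antagonist of the interleukin-1 receptor, had one 16.5 kb upstream (chr2:24320160-24320462) with 13.5 tags at 12 h alone, against 10 raw tags in the untreated library. Farther off, inside Pax8, Il1rn had stronger sites. The one 88.7 kb downstream held 23.1 tags at 12 h against 49.7 at 1 h, a log2 ratio of -1.10 (-1.34 to -0.87), and the one 94.7 kb downstream held 43.5 tags at 1 h alone. For the sites within 25 kb, the values that would have met the fold at the other time were 9.09 tags for Il6st and 7.58 for Il1rn. With no value for the library in which a site was not listed, the change between the times is not known for either. Il1r1, the interleukin-1 receptor gene, had 1 h peaks of 13.9 and 10.9 tags at 48.1 and 98.5 kb and none at 12 h.

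Of the effector genes Lcn2, which encodes the iron-trapping protein lipocalin-2, had a site near its start. The site lay 602 bp upstream (chr2:32388200-32388482) and held 21.1 tags at 1 h, or 191 raw tags against 2 in the untreated library (fold 83.5, 22.8 to 695). It was not listed at 12 h, although 1.52 tags would have met the fold there. A 12 h peak also had to pass a minimum of tags, and the weakest one listed held 6.96. Ptgs2 (cyclooxygenase-2), Icam1 and Vcam1 (adhesion molecules for leukocytes) had their nearest 1 h peaks at 75.7, 37.8 and 65.3 kb, with 29.6, 14.6 and 23.6 tags, and none within 100 kb at 12 h. Nos2, the inducible nitric oxide synthase gene, had none within 100 kb at either time.

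The gene for the p105/p50 subunit, Nfkb1, was the sole NF-κB subunit gene with a site within 25 kb. The site inside the gene (chr3:135670878-135671160) held 16.0 tags at 12 h and 15.9 at 1 h, with a log2 ratio of 0.01 (-0.33 to 0.34). Untreated cells gave 16 raw tags over the 12 h window and 17 over the 1 h window, more than the medians of 11.0 and 10.5 over the sites within 25 kb, and the fold was 7.90 (4.71 to 14.2) at 12 h and 7.41 (4.47 to 13.1) at 1 h, near the minimum of 6. A second Nfkb1 site 59.0 kb away held 40.9 tags at 12 h against 31.1 at 1 h, a log2 ratio of 0.39 (0.17 to 0.62). Rel and Rela had 1 h peaks at 78.8 kb (12.6 tags, inside Pex13) and 57.5 kb (10.3 tags, inside Kcnk7), and Relb and Nfkb2 had none within 100 kb.

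The NF-κB inhibitor genes included the strongest 1 h site within 25 kb of the 41 genes. Nfkbiz, which encodes the nuclear protein IκBζ, an inhibitor of some NF-κB targets and a coactivator of others, had a site 21.8 kb from its span (chr16:55789439-55789721). The 12 h library held 45.4 tags there and the 1 h library 89.4, over 8 raw tags of untreated cells in either window. The fold over untreated was 45.0 (22.6 to 105) at 12 h and 88.6 (44.7 to 206) at 1 h. The log2 ratio was -0.98 (-1.15 to -0.81). Nfkbiz was the nearest protein-coding gene to this site.

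Tnfaip3, which encodes the ubiquitin-editing enzyme A20, a brake on NF-κB signalling, had a site inside the gene (chr10:19009334-19009616). It held 14.5 tags at 12 h against 18.4 at 1 h, a log2 ratio of -0.34 (-0.68 to -0.01) and so a difference at the edge of counting error. Another 4 sites lay 30.8 to 76.9 kb upstream with 9.06 to 16.9 tags at 1 h. One of them, at 30.8 kb, was listed at 12 h as well, with 11.0 tags against 15.2 at 1 h. Tnip1, whose product binds A20, had a 12 h site 13.2 kb downstream (chr11:54897482-54897784) with 9.92 tags. This site is nearer to Gpx3 and passed the local condition narrowly, at a fold of 6.01 against 6. A much stronger site stood just beyond the distance limit, 25.7 kb downstream of Tnip1 and nearer to Hint1 (chr11:54884924-54885206), with 82.0 tags at 12 h against 68.9 at 1 h, a log2 ratio of 0.25 (0.10 to 0.41).

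Nfkbia, the gene for IκBα, the inhibitor that NF-κB itself induces and that glucocorticoids are known to induce, had its site inside the gene, 646 bp from the start site (chr12:55491860-55492142). It held 12.5 tags at 1 h, or 113 raw tags against 0 in the untreated library. Taking 3 raw tags as the most that a count of 0 allows, the 1 h level was at least 32.9-fold higher than in untreated cells. The site was not listed at 12 h. The weakest listed 12 h peak held 6.96 tags, so the data limit the 12 h level only loosely. The peak lay beyond the promoter window (chr12:55492598-55492897, minus strand), which is shown because it carries the NF-κB consensus match (in capitals) at positions -29 to -20 and no GR half-site or AP-1 site.
Nfkbia: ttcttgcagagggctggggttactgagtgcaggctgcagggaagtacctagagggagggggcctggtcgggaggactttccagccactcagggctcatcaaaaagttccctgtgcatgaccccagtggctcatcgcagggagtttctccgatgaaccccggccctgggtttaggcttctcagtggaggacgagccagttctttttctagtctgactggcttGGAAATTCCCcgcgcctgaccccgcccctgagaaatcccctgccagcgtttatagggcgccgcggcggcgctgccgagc
Unlike the Cxcl1 window, this one was not overlapped by a listed peak. Of the other inhibitor genes, Nfkbie (IκBε) had 1 h peaks of 18.3 tags at 33.6 kb, inside Slc29a1, and of 10.9 tags at 47.3 kb. Nfkbib (IκBβ) had none within 100 kb.

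The interferon regulatory factor gene Irf2 stood out for a pair of sites that went opposite ways. The site 20.2 kb downstream (chr8:46867496-46867778) held 20.1 tags in the 12 h library and 40.0 in the 1 h library, a log2 ratio of -0.995 (-1.25 to -0.74). The next site, 28.7 kb downstream (chr8:46876025-46876307) and so outside the 25 kb limit, held 50.2 tags in the 12 h library and 16.0 in the 1 h library. In raw tags this was 491 at 12 h and 145 at 1 h, over 13 and 12 in the untreated library. Its log2 ratio of 1.65 (1.38 to 1.93) ranked 2nd from the highest among the 2436 sites in both lists. The value is named because it stood out once seen, and it was among 16 shared sites within 100 kb of the 41 genes. Another site, 34.5 kb upstream, held 13.4 tags at 1 h alone. Irf1, a related factor gene, had no peak within 100 kb.

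Between the times, the sites within 25 kb of the 41 genes went the way of all listed peaks. Those at 25 to 100 kb were listed again at 12 h less often. Of the 18 sites listed at 1 h within 25 kb, 9 were also in the 12 h list, a share with a Wilson 95% interval of 29.0% to 71.0%, against 43.2% of all 1 h peaks. Of the 11 sites in the 12 h list, those 9 made up 81.8%, against 84.5% of all 12 h peaks. At the 9 sites in both lists the median log2 ratio of 12 h over 1 h was -0.75, against -0.49 at all 2436 shared sites. The 12 h library held more tags at 2 of the 9 and fewer at 7, and over all shared sites it held more at 22.8%. The interval lay above 0 at 1 of the 9 sites and below 0 at 6. These directions hold for tags per library: with each library scaled to its summed tags over all shared sites, which adds 0.57 to every log2 ratio, the median became -0.18 at the 9 sites and 0.08 at all shared sites, and the ratios of the Tnfaip3 site (0.23) and the Cxcl5 site (0.51) turned positive. By tags per library none of the 9 was 2-fold higher or lower. Over all shared sites 1.44% were at least 2-fold higher and 24.5% at least 2-fold lower. Some of the 9 lay close to this cut-off. By tags per base of the window, the ratios of the Irf2 (-1.09), Nfkbiz (-1.08) and Cx3cl1 (-1.02) sites passed it. With the summed-tag scaling, the shared site of Cxcl1 and Cxcl2 passed it in the other direction, at 1.14. Including sites up to 100 kb away, 16 of the 51 sites listed at 1 h were shared (31.4%, Wilson 95% interval 20.3% to 45.0%). At 25 to 100 kb alone the share was 7 of 33 (21.2%, 10.7% to 37.8%), below the 43.2% of all 1 h peaks. The reason for the lower share was not tested. The 16 shared sites had a median of -0.61, and of them 1 was at least 2-fold higher and 3 at least 2-fold lower.

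**Figure D4:**
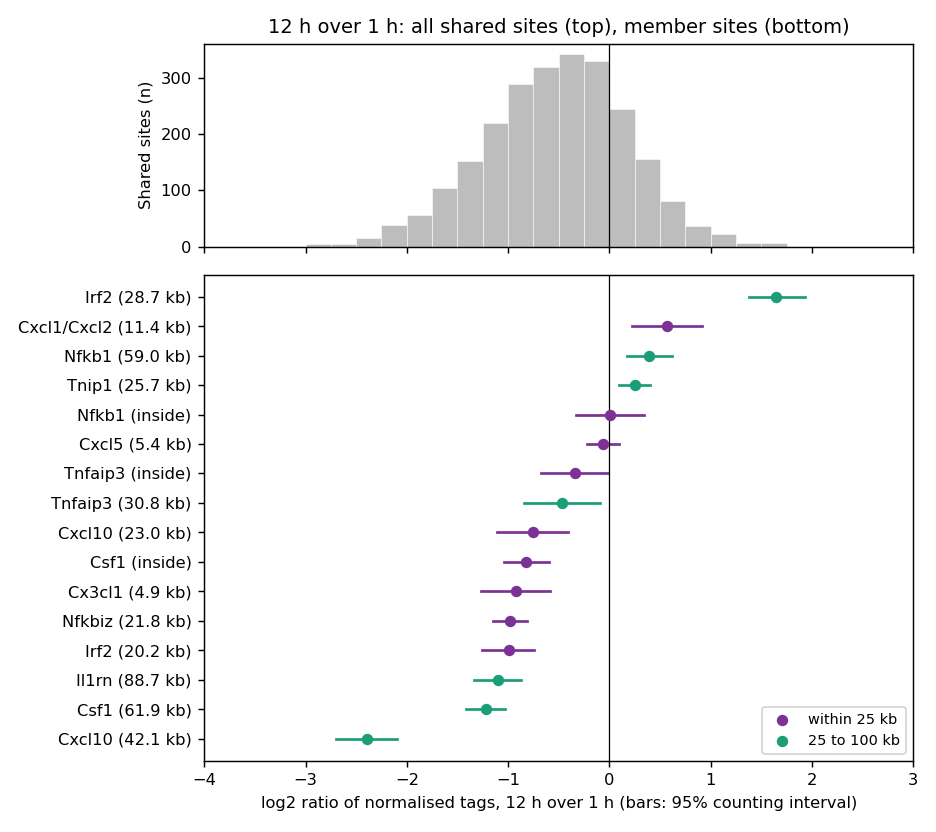
Log2 ratio of normalised tags, 12 h over 1 h (x axis). The upper panel counts all 2436 sites in both lists by ratio, and the lower panel gives the 16 such sites within 100 kb of the 41 genes (rows), those within 25 kb in purple and those at 25 to 100 kb in green, with the 95% counting interval as a bar. The ratios run from 1.65 at the farther Irf2 site to -2.39 at the farther Cxcl10 site.

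The strength of the sites was ordinary for these lists. The median within 25 kb was 16.0 tags at 12 h and 20.2 at 1 h, against 18.0 and 18.3 over all peaks of the 12 h and 1 h lists. Nfkbiz ranked 294th of the 5638 1 h peaks by the caller's score, and the strongest 12 h site, that of Cxcl5, ranked 189th of 2883. The list of untreated cells held 1 peak, and it was not within 100 kb of any of the 41 genes. At the sites within 25 kb the untreated library held a mean of 11.0 raw tags in the 12 h windows and 10.6 in the 1 h windows. The caller's average tag density gives 11.6 in 12 h windows and 10.8 in 1 h windows. Single sites ranged from 0 raw tags at Nfkbia to 27 at the nearer Cxcl5 site. Since the caller required 6-fold over these very values, they come from selected sites and are no measure of background.

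Where the start is known, the sites within 1 kb of it were those of Cxcl1 (65 bp), Lcn2 (602 bp) and Nfkbia (646 bp). No start was known for Cxcl5, Nfkb1 and Nfkbiz. The counts that follow are by the span of the gene. Of the 20 sites, 4 were inside one of the 41 genes and 7 were inside one or within 1 kb of it. Counting any protein-coding gene, 6 of the 18 sites in the 1 h list were inside a gene, against 42.9% of all 1 h peaks. Of the sites outside the 41 genes, 6 were upstream, 7 downstream and 3 beside a gene whose strand is not in the promoter table. For 17 of the 20, the nearest protein-coding gene was one of the 41. The other 3 were nearest to Cxcl9, Art3 and Gpx3. The sites were picked for lying near the 41 genes, so these positions follow in part from the rule. Apart from the share inside a gene, no like counts were made over all peaks.

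The promoter windows of the 41 genes held the NF-κB consensus at a higher share than other promoters, both with and without a GR site nearby. Windows were known for 31 of the 41 genes, and 16 of these (51.6%) held the consensus on either strand. The share was 10.5% of 17492 protein-coding genes with a window, and 8.46% of all 32851 windows. The list was drawn up from genes known to belong to the NF-κB pathway, so this is a description of the list. Among the 13 of them with a GR site within 25 kb, 8 held it. The AP-1 site TGACTCA was found for 8 of 31 genes (25.8%, against 5.40% of protein-coding genes). The GR half-site AGAACA was found for 5 of 31 (16.1%, against 18.5%). The full palindrome, AGAACA and TGTTCT with 3 bases between them, was in none of the 31 and in 3 of all 32851 windows. A match is a string of letters, not a measured binding site.

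**Figure D5:**
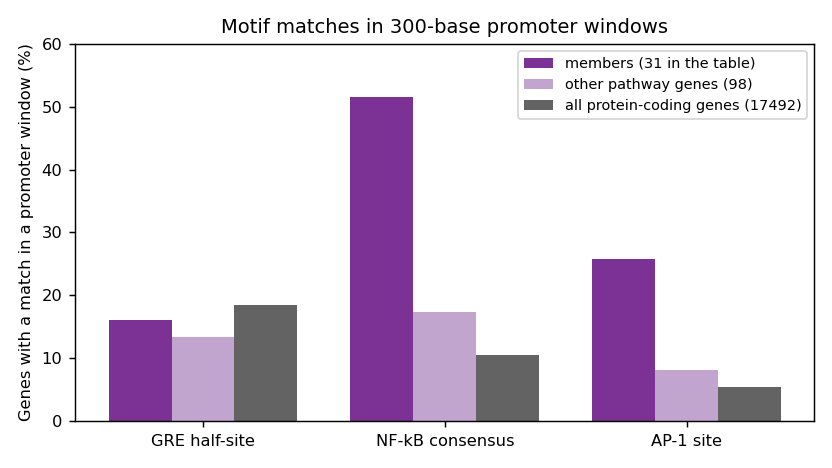
Percentage of genes with at least 1 motif match on either strand of a 300-base promoter window (y axis) for 3 motifs (x axis), for the 31 genes of the group with a window, 98 other pathway genes and 17492 protein-coding genes. The NF-κB consensus stands at 51.6% in the group and 10.5% in all genes, and the GR half-site at 16.1% and 18.5%.

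Other genes of the same pathways had sites as well. Of 119 other genes for cytokines, chemokines, receptors, adaptors, kinases and inhibitors, 11 had a site within 25 kb at 12 h (9.24%, against 9.22% of protein-coding genes) and 24 at 1 h (20.2%, against 16.9%). Within 10 kb the shares were 7.56% at 12 h (against 6.16%) and 15.1% at 1 h (against 11.7%), and within 100 kb 26.1% at 12 h (against 22.3%) and 43.7% at 1 h (against 37.4%). The groups share some sites. The Cxcl9 site was also counted for Cxcl10 at both times, and the 12 h site of Ccl17 was also counted for Cx3cl1. The difference from the 41 genes was not tested. Irak3, which encodes an inactive kinase that damps Toll-like receptor signalling, had the strongest 1 h site, inside the gene (chr10:120188524-120188806), with 28.6 tags at 12 h against 98.2 at 1 h, a log2 ratio of -1.78 (-1.98 to -1.58). Il6ra, the interleukin-6 receptor gene, held 19.8 tags at 12 h against 70.6 at 1 h inside its span, a log2 ratio of -1.83 (-2.07 to -1.60). N4bp1, whose product restrains NF-κB signalling, held the strongest 12 h site, with 32.7 tags at 12 h against 61.3 at 1 h, and the chemokine gene Ccl28 held 17.6 at 12 h and 42.8 at 1 h.

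Several other leading sites of these genes were in the 1 h list alone. They were a site 21 bp from the chemokine gene Ccl17 (66.0 tags), which also lies 29.6 kb from Cx3cl1, a site inside Il18r1 and 7.16 kb from Il1rl1, receptor genes of the interleukin-1 family (62.8 tags), and a site 3.59 kb from the Toll-like receptor gene Tlr2 (32.9 tags). Tnip3, related to Tnip1, had a site in the 12 h list alone, of 10.0 tags.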

How the data were processed

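GR ChIP-seq peak lists were used for 1 library each of untreated cells and of cells given 600 nM corticosterone for 1 h or 12 h. The submitters' processing notes name mm10, bcl2fastq 2.17, Bowtie2 2.2.6 and HOMER, the last without a version. Per the file headers, the authors called peaks per library with findPeaks in factor style (false discovery rate 0.001, tag threshold 75, fold of at least 6 over control and over the surrounding 10 kb), the treated libraries against the untreated ChIP library and the untreated one against an input, whose label gives a hormone treatment while the header calls it untreated. Windows were 302 bp at 12 h and 282 bp at 1 h.

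The signal is the deposited normalised tag count, scaled by HOMER to 10000000 tags. Untreated tags in treated windows, also deposited as signal, are raw, with 0.5 in place of 0. For the single peak of the untreated list the deposited tag count is raw. Tags of the treated lists, deposited scaled to the untreated library, were scaled back and came out whole, within 0.1 of a tag, at 100% of peaks. The deposited score per peak only ranked peaks within a list, and the deposited fold (a ratio) over control and over the local region describes peaks.

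Gene spans came from RefSeq (GRCm38.p6, the assembly of mm10), and all 41 genes and 120 other pathway genes matched by symbol; Cxcl11, not annotated as protein-coding, was left out. Start sites and promoters came from the RefSeq promoter table. A gene had a peak when a peak centre lay within 25 kb of its span; lists were paired by overlap of at least 1 bp. Ratios have exact binomial (Clopper-Pearson) 95% intervals from raw tags, which cover counting error and no more, because duplicate reads cannot be told from separate molecules here. Motifs were searched on both strands. Named are each of the 41 genes with a peak within 25 kb, those with peaks at 25 to 100 kb, and the leading other pathway genes by 1 h score; sites of the 41 genes beyond 25 kb were picked for mention after their values were seen. The genes and lists were chosen with earlier results of these data known. No gene lists were drawn by chance; shares over all protein-coding genes and over those of like span length (5 bins) stand in their place. Calculations used Python 3.11.15, pandas 2.3.3, numpy 2.4.6, scipy 1.17.1 and matplotlib 3.10.9, and the distance, pairing and ratio steps were tested on simulated data.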

Additional observations from a re-analysis of the deposited data

How the results depend on the processing

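Most counts followed the distance and strength required of a peak. Genes with a 12 h peak numbered 12 of 41 within 25 kb, 3 inside the span (against 4.02% of protein-coding genes), 5 within 10 kb (6.16%), 14 within 100 kb, 9 when a peak was given to its nearest gene alone (6.38%), 4 with each minimum doubled (3.69%) and 5 within 25 kb of a start site (5.43%). For 1 h the counts were 14, then 4 (7.54%), 8 (11.7%), 27, 13 (11.4%), 6 (7.67%) and 10 (10.6%). The share of the 41 genes stayed above that of protein-coding genes in each setting, though by few genes in the narrow ones. Each setting used the same list of genes, chosen with earlier results of these data known. Distances from start sites were added after seeing the data and cover the 31 genes with a known start. Distinct 12 h sites numbered 11, then 5 within 10 kb, 20 within 100 kb and 3 with minimums doubled, and distinct 1 h sites 18, 10, 51 and 6. Shared sites numbered 9 under each pairing rule tried, 5 within 10 kb and 16 within 100 kb.

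The median log2 ratio of -0.75 became -0.34 within 10 kb and -0.18 when each library was scaled to its summed tags over all shared sites, a scaling that adds 0.57 to each ratio and moves the median of all shared sites to 0.08. Under that scaling the Tnfaip3 ratio turned to 0.23. Of 27 single-site alternatives 18 stayed within the counting interval, and these were the ones per base of the window and with untreated tags subtracted. Every alternative outside the interval came from the summed-tag scaling, which moved the ratio of each shared site within 25 kb out of its interval. The single-site ratios therefore depend on how the libraries are scaled. No paired analysis was possible because each group has 1 library. Sites in 1 list alone have no value in the other library, because the peak lists omit windows that were not called.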
